A study of Homo sapiens with 6 samples.

Results

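Integrins are the cell's main receptors for the extracellular matrix, and laminins are the matrix proteins of the basement membrane to which several of them bind. The genes described here are those whose symbols name an integrin α subunit (ITGA), an integrin β subunit (ITGB) or a laminin α, β or γ chain (LAMA, LAMB, LAMC). The genes were taken by symbol alone and by no measured value, though earlier results of these data were known at that time. It gave 38 of the 17452 genes listed in the files: 17 integrin α, 8 integrin β, 5 laminin α, 4 laminin β and 3 laminin γ genes. The symbol rule also took in ITGB1BP2, which encodes melusin, a muscle protein that binds the tail of integrin β1 and is no subunit itself.

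The study compared MDA-MB-231 cells, a line from a human triple-negative breast tumour, after transfection with a control siRNA (siControl, 3 libraries) or with siRNA against PHF20L1 (siPHF20L1, 3 libraries), to find genes that depend on this reader of methylated lysines. The cells of both groups grew in serum-containing L-15 medium, per the labels' protocols, which name a pair of lipid reagents without saying which served which sample. Whether 1 siRNA or several were used, the time of harvest and the number of separate cultures are not given in the sources used here, so that p-values measure only the spread between these libraries, which may be technical. Poly-A RNA was sequenced from stranded libraries, and the values are FPKM (fragments scaled by transcript length and by the library's mapped fragments) as deposited.

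The 6 libraries held an estimated 17000000 to 17500000 fragments each, from the step by which the FPKM of low genes moved. PHF20L1 lay at 15.75, 12.48 and 12.73 FPKM in siControl and at 2.67, 2.31 and 2.74 FPKM in siPHF20L1 libraries, and each library thus bore out its label. The marks of the line were present, with the mesenchymal filament gene VIM at 1612.83 to 1644.01 FPKM in siControl and 1009.95 to 1024.41 FPKM in siPHF20L1 libraries, the receptor genes ESR1 and PGR at or near 0, and the epithelial cadherin gene CDH1 at 0.31 to 0.45 FPKM. The epithelial gene EPCAM lay at 2.02 to 2.33 FPKM in siControl and 3.54 to 5.13 FPKM in siPHF20L1 libraries, and its and VIM's part in the results below was not tested. In both groups the library numbered 1 stood apart from those numbered 2 and 3, and each result below was also computed within the numbers.

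As background, an integrin is a pair of 1 α and 1 β subunit that spans the membrane. The β subunit ITGB1 pairs with most α subunits, ITGAV takes several β subunits, and ITGB4 pairs with ITGA6 alone. The pair decides the ligand: ITGA3, ITGA6 and ITGA7 make laminin receptors, ITGA1, ITGA2, ITGA10 and ITGA11 receptors for collagen, ITGA5 and ITGAV receptors for fibronectin, vitronectin and other proteins with an RGD sequence, while ITGB2 and its partners are known from leukocytes. A laminin is a trimer of an α, a β and a γ chain joined in a coiled coil, which is assembled inside the cell. Epithelial cells are known to make trimers of LAMA5 and LAMC1 with LAMB1 or LAMB2, and a further trimer that holds LAMA3 and LAMB3.

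Of the 38 genes, 21 were tested, that is, they had at least 1 FPKM in at least 3 libraries. After knockdown of PHF20L1, 9 were higher, 5 lower and 7 did not pass the threshold (limma on log2(FPKM + 1), Benjamini-Hochberg adjusted p under 0.05 over all 11560 genes tested). The background was high: 58.6% of all tested genes passed, 34.0% as higher and 24.7% as lower, so that 14 of 21 is a share near that of all genes. The sizes ranged from a fall of LAMA5 by 1.36 to a rise of ITGB3 by 1.24 on the log2 scale. At least 2-fold on that scale, ITGB3 was higher and LAMA5 and ITGA7 lower, against 5.22% of all tested genes past that size in either direction. For 16 of the 21 genes the FPKM ranges of siControl and siPHF20L1 were separate, against 63.7% of all tested genes. The median log2 difference over the 21 genes was 0.06, against 0.05 over all tested genes, and the median of its absolute size was 0.37 against 0.28. With median-ratio size factors the median of the members was -0.01, and 8 were higher and 7 lower, while 29.7% of all tested genes were higher and 29.6% lower.

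**Figure D1:**
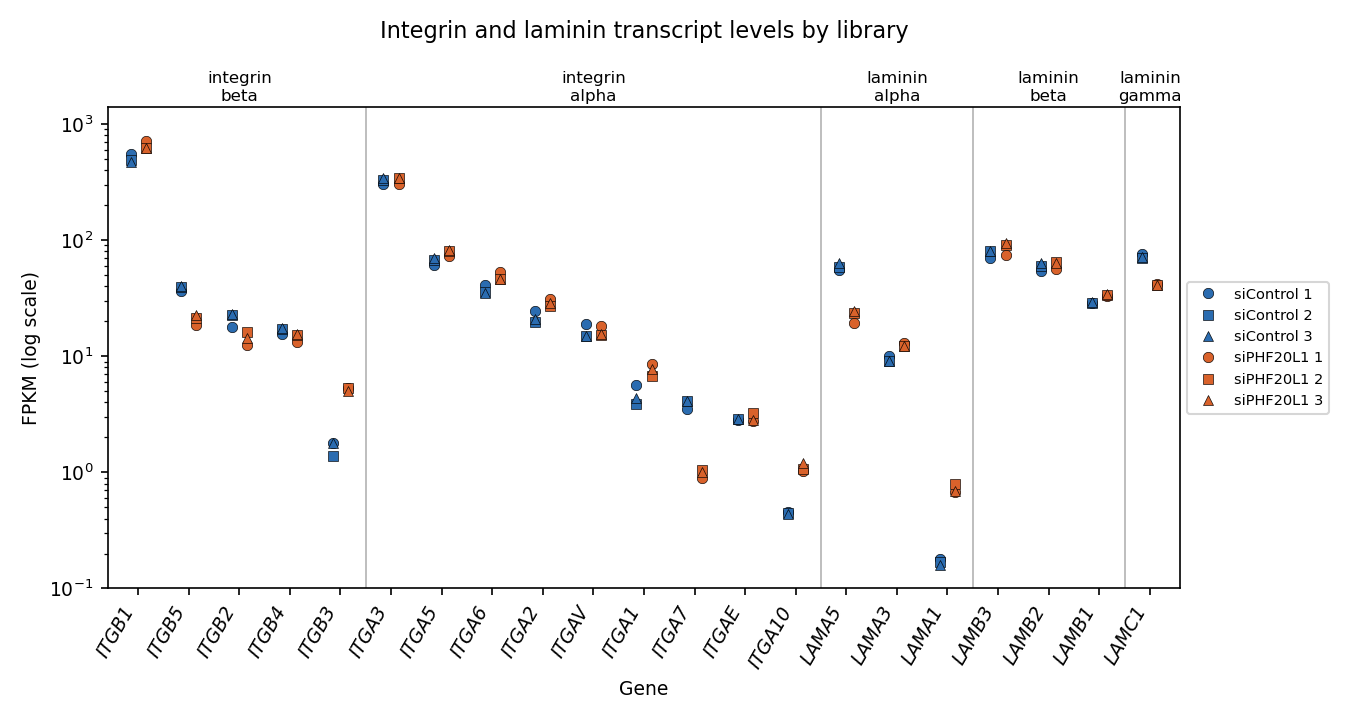
FPKM on a log axis for 20 tested genes and LAMA1, grouped by subunit or chain; blue marks are the 3 siControl and orange marks the 3 siPHF20L1 libraries, with the mark's shape giving the library number. ITGB1 and ITGA3 lay highest in every library. The genes whose orange marks stood clear of the blue ones include ITGB3, ITGB5, ITGA7, ITGA10, LAMA5, LAMC1 and LAMA1.

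Among the β subunits, ITGB1 was the most abundant, at 547.8, 487.98 and 472.36 FPKM in siControl and 713.25, 619.65 and 619.32 FPKM in siPHF20L1 libraries. All siPHF20L1 libraries lay above all siControl libraries, and the library numbered 1 was the highest of its group on both sides. ITGB1 rose 1.29-fold (log2 difference 0.37, SE 0.08, limma, adjusted p = 0.00486). It made up 86.4% ± 1.81 (SD, n = 3) of the summed FPKM of the 8 β genes in siControl and 92.1% ± 1.18 in siPHF20L1 libraries, a share that also moves with the fall of ITGB5 and ITGB2.

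ITGB5 and ITGB3, which share the partner ITGAV and bind vitronectin, went in opposite directions. ITGB5 fell from 36.19, 39.77 and 40.54 FPKM in siControl to 18.5, 21.41 and 22.71 FPKM in siPHF20L1 libraries (1.86-fold, log2 difference -0.87, SE 0.08, limma, adjusted p = 4.36e-05). ITGB3 rose from 1.78, 1.38 and 1.78 FPKM to 5.33, 5.34 and 5.02 FPKM (3.18-fold, log2 difference 1.24, SE 0.09, limma, adjusted p = 7.3e-06). For neither gene did the groups overlap. ITGB5 remained the more abundant of the pair: its FPKM was 20.3 to 28.8 times that of ITGB3 in siControl and 3.47 to 4.52 times in siPHF20L1 libraries. ITGAV itself lay at 19, 14.83 and 14.98 FPKM in siControl and at 18.18, 15.32 and 15.65 FPKM in siPHF20L1 libraries. Its groups overlapped, and the 95% interval of its log2 difference ran from -0.23 to 0.26 (limma, adjusted p = 0.918). ITGAV also pairs with the abundant ITGB1, and its partners ITGB6 and ITGB8 stayed at or below 0.15 FPKM in all 6 libraries. In GENCODE release 29, ITGB3 shares 51.6% of its exon bases with a longer annotated gene on the same strand, AC068234.1, so that fragments of the 2 cannot be told apart over that stretch.

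ITGB2, the β subunit known from leukocytes, was at 17.98, 22.55 and 23.32 FPKM in siControl and at 12.49, 16.01 and 14.22 FPKM in siPHF20L1 libraries, a fall of 1.5-fold (log2 difference -0.55, SE 0.12, limma, adjusted p = 0.00345). The highest siPHF20L1 library stayed below the lowest siControl library. The α partners of ITGB2 were barely present: ITGAL, ITGAM and ITGAX did not exceed 0.41, 0.01 and 0.37 FPKM in any library. Of the leukocyte markers checked, CD3E and SPI1 did not exceed 0.04 FPKM, while PTPRC and CD14 were detected at low levels. PTPRC lay between 0.87 and 1.43 FPKM and gave a log2 difference of 0.04 (limma, adjusted p = 0.802). CD14 lay at 0.7, 1.08 and 1.24 FPKM in siControl and at 0.74, 0.5 and 0.6 FPKM in siPHF20L1 libraries, with overlap. It was outside the test, and without the filter on low values its log2 difference was -0.31 (limma, adjusted p = 0.0634). The part of such transcripts in the fall of ITGB2 was not tested. ITGAE, whose partner is ITGB7, showed the reverse imbalance, at 2.82 to 2.88 FPKM in siControl and 2.75 to 3.27 FPKM in siPHF20L1 libraries, with ITGB7 at no more than 0.27 FPKM. Its log2 difference of 0.03 did not pass (limma, adjusted p = 0.763).

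ITGB4, which joins ITGA6 in the hemidesmosome, an anchor between epithelial cells and laminin, lay at 15.55, 17.21 and 17.64 FPKM in siControl and at 13.2, 15.29 and 15.47 FPKM in siPHF20L1 libraries. The groups came close without overlapping. The log2 difference of -0.19 did not pass (95% interval -0.37 to -0.0027, limma, adjusted p = 0.0755), but it did once the replicate block was added (adjusted p = 0.00166), without the pair numbered 1 (0.00885), without siControl replicate 1 (0.0339), with quantile normalization (0.0353) and with median-ratio size factors (0.0326). The remaining β genes, ITGB6, ITGB7 and ITGB8, were below 0.5 FPKM everywhere and were not tested.

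Of the laminin-binding α subunits, ITGA3 was the most abundant α gene and did not change detectably. It lay at 301.64, 326.83 and 343.28 FPKM in siControl and at 303.85, 340.17 and 340.9 FPKM in siPHF20L1 libraries (log2 difference 0.02, 95% interval -0.15 to 0.19, limma, adjusted p = 0.836). ITGA6 rose from 41.16, 35.55 and 35.34 FPKM to 53.61, 46.22 and 46.06 FPKM, with no overlap (1.3-fold, log2 difference 0.37, SE 0.08, limma, adjusted p = 0.00489). Its rise was of the size of that of its partner ITGB1, while its other partner ITGB4 had a log2 difference below 0. ITGA7, a laminin receptor subunit best known from muscle, fell from 3.51, 4.15 and 4.09 FPKM to 0.9, 1.04 and 1.01 FPKM. This was the largest ratio of any member tested (3.98-fold, log2 difference -1.31, SE 0.08, limma, adjusted p = 4.64e-06). With a siPHF20L1 library at 0.9 FPKM, ITGA7 met the filter only with its siControl libraries counted, so its call is partly built into the filter. On about 249 to 294 fragments per siControl library and 63 to 75 per siPHF20L1 library, estimated from depth and transcript length, the 2 groups stood far apart. The muscle gene ACTA1 lay at 0.12, 0.23 and 0.12 FPKM in siControl and was listed at 0.08, 0 and 0 FPKM in siPHF20L1 libraries, without overlap (log2 difference -0.17 without the filter on low values, limma, adjusted p = 0.0283). DES, another muscle gene, was at 0.33 to 0.51 FPKM and at 0.36 to 0.63 FPKM, with overlap. The melusin gene ITGB1BP2 was at 0, 0.22 and 0.36 FPKM in siControl and at 0.06, 0.17 and 0.06 FPKM in siPHF20L1 libraries, also with overlap. These muscle genes stayed below 1 FPKM in every library and were outside the test, and ACTA1 and ITGB1BP2 lay near 0. The part of muscle transcripts in the fall of ITGA7 was not tested.

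The collagen-binding α subunits ITGA1 and ITGA2 were both higher. ITGA1 was at 5.69, 3.88 and 4.36 FPKM in siControl and at 8.53, 6.81 and 7.69 FPKM in siPHF20L1 libraries (1.65-fold, log2 difference 0.63, SE 0.13, limma, adjusted p = 0.0026). ITGA2 was at 24.6, 19.7 and 21.07 FPKM and at 31.36, 27.18 and 29 FPKM (1.34-fold, log2 difference 0.41, SE 0.09, limma, adjusted p = 0.00428). In both genes every siPHF20L1 library exceeded every siControl library, and library 1 was the highest of its group. ITGA10 was at 0.46, 0.45 and 0.44 FPKM in siControl and at 1.02, 1.07 and 1.2 FPKM in siPHF20L1 libraries, a ratio of 2.44. It was tested only because its siPHF20L1 libraries passed 1 FPKM, so its call (limma, adjusted p = 0.000366) is partly built into the filter. ITGA11 stayed between 0.02 and 0.12 FPKM. ITGA1 shares 4.42% of its exon bases with PELO on the same strand, and fragments there cannot be assigned.

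ITGA5, the fibronectin receptor subunit, lay at 61.24, 67.95 and 70.51 FPKM in siControl and at 73.44, 80.48 and 81.9 FPKM in siPHF20L1 libraries. The rise was small (1.18-fold, log2 difference 0.24, SE 0.07, limma, adjusted p = 0.0187). It was the one called member whose call depended on the setting, with an adjusted p of 0.0639 without siPHF20L1 replicate 2, 0.0768 without siPHF20L1 replicate 3 and 0.0788 with median-ratio size factors, over a range of 5.13e-05 to 0.0788 in 16 alternatives. The other 8 α genes were not tested and did not exceed 0.41 FPKM in any library. Among them, ITGA9 was listed at 0.01, 0 and 0 FPKM in siControl and at 0.09, 0.06 and 0.03 FPKM in siPHF20L1 libraries, about 4 to 12 fragments each in the latter. Without the filter on low values ITGA9 passed on these few fragments (log2 difference 0.079, limma, adjusted p = 0.0451).

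By level in siControl, the α genes ran ITGA3, ITGA5, ITGA6, ITGA2, ITGAV, ITGA1, ITGA7, ITGAE and ITGA10. Neighbours in this order were separated in all siControl libraries except ITGA1 and ITGA7, whose ranges overlapped. In siPHF20L1 libraries ITGA7 had moved from between ITGA1 and ITGAE to the level of ITGA10. The summed FPKM of all α genes was 478.5 ± 18.3 in siControl and 514.6 ± 17.8 in siPHF20L1 libraries, and that of the β genes 581.5 ± 33.6 and 706.1 ± 49.4 FPKM (SD, n = 3), sums that ITGA3 and ITGB1 dominate.

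**Figure D2:**
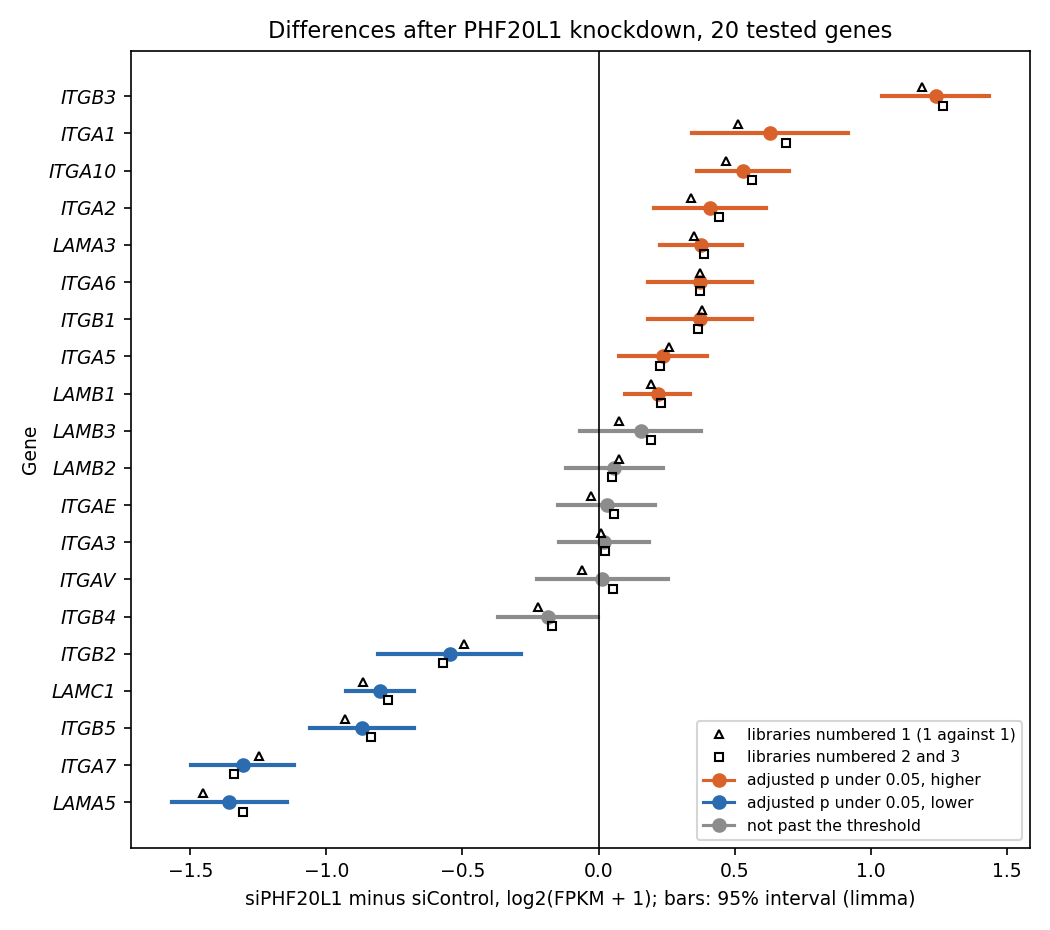
Log2 difference (siPHF20L1 minus siControl, log2(FPKM + 1)) of 20 tested genes, with the 95% interval of limma over all 6 libraries as a bar; open triangles give the libraries numbered 1 and open squares those numbered 2 and 3. Triangle and square lie on the same side of 0 for 18 of the 20 genes, the exceptions being ITGAV and ITGAE near 0.

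Of the 7 laminin chain genes tested, 2 were higher, 2 lower and 3 not past the threshold. LAMA5, the α chain of the trimers with LAMC1, fell most. It was at 54.84, 59.23 and 62.89 FPKM in siControl and at 19.4, 23.63 and 24.5 FPKM in siPHF20L1 libraries (2.62-fold, log2 difference -1.36, SE 0.09, limma, adjusted p = 6.97e-06). LAMC1, the γ chain shared by most laminins, fell with it, from 76.4, 70.12 and 71.36 FPKM to 41.5, 40.99 and 40.96 FPKM (1.77-fold, log2 difference -0.80, SE 0.05, limma, adjusted p = 6.57e-06). The siPHF20L1 libraries of both genes lay well below all siControl libraries. LAMB1, the β chain that completes one of these trimers, went the other way, from 28.63, 28.66 and 29.36 FPKM to 32.88, 33.82 and 34.52 FPKM (1.17-fold, log2 difference 0.22, SE 0.05, limma, adjusted p = 0.00664). LAMB2, the alternative β chain, was at 53.98, 60.25 and 63.81 FPKM and at 56.93, 64.5 and 63.78 FPKM, with overlapping groups (log2 difference 0.06, 95% interval -0.12 to 0.24, limma, adjusted p = 0.551). The chains of these trimers thus moved in different directions at the transcript level.

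LAMA3 and LAMB3, chains of the laminin of epithelial anchoring, had smaller differences than LAMA5 and LAMC1. LAMA3 rose from 9.96, 9.11 and 9.17 FPKM to 12.98, 12.2 and 12.35 FPKM, with no overlap (1.33-fold, log2 difference 0.38, SE 0.07, limma, adjusted p = 0.00123). LAMB3 was at 70.14, 79.79 and 81.26 FPKM in siControl and at 74.01, 90.94 and 93.54 FPKM in siPHF20L1 libraries. Its groups overlapped through library 1, and its log2 difference of 0.15 did not pass (limma, adjusted p = 0.202), while it did under the replicate block (0.00236), without the pair numbered 1 (0.00103) and without siPHF20L1 replicate 1 (0.0144).

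Among the 5 laminin α genes, LAMA5 made up 85.8% ± 1.45 (SD, n = 3) of the summed FPKM in siControl and 62.3% ± 3.49 in siPHF20L1 libraries, and LAMA3 13.7% ± 1.37 and 34.9% ± 3.58. The sum itself fell from 68.7 ± 3.59 to 36.0 ± 2.44 FPKM (SD, n = 3). On the per-length scale LAMA5 stayed the higher of the 2 in every library. The third contributor was LAMA1, the α chain of the early embryonic laminin. It lay at 0.18, 0.17 and 0.16 FPKM in siControl and at 0.68, 0.8 and 0.69 FPKM in siPHF20L1 libraries, a ratio of 4.26 on about 27 to 30 fragments per siControl and 112 to 135 per siPHF20L1 library. LAMA1 did not reach 1 FPKM in any library and was outside the test, but without the filter on low values its log2 difference was 0.56 (limma, adjusted p = 7e-05), within a fit where 16 members passed. LAMA2, LAMA4, LAMB4 and LAMC3 stayed at or below 0.43 FPKM. LAMA4, the α chain of vessel walls, was listed at 0.08, 0.08 and 0.02 FPKM in siControl and at 0.08, 0.19 and 0.23 FPKM in siPHF20L1 libraries, with overlap.

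The promoters of LAMA5 and LAMC1, which fell together, and of LAMB1, which rose, are shown because chains of shared trimers moved apart. LAMA3, an α chain of a further trimer, also rose, and its listed promoter is shown beside them. The windows hold the 250 bases before the annotated start, 5′ to 3′ on the gene's strand, from RefSeq on GRCh38.p14, a build other than that of the files. Capitals mark GC boxes (GGGCGG, the site of Sp1 family factors) and AP-1 sites (TGANTCA). Both strands were searched for these, for the CCAAT word of promoters, for the TATAAA word of the TATA box and for the E-box word CACGTG. Overlapping matches of a word with itself were counted separately.
LAMA5, chr20:62367313-62367562, - strand: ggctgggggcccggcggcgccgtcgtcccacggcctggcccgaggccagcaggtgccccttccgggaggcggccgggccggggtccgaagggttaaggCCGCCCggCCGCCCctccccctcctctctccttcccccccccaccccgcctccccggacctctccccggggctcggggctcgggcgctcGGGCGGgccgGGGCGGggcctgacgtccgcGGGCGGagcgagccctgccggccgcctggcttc
LAMC1, chr1:183023170-183023419, + strand: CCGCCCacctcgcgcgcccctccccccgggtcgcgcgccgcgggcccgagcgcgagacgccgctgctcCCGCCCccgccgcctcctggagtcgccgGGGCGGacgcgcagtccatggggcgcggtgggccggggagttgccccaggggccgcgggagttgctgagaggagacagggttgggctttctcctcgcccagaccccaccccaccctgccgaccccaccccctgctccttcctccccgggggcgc
LAMB1, chr7:108003162-108003411, - strand: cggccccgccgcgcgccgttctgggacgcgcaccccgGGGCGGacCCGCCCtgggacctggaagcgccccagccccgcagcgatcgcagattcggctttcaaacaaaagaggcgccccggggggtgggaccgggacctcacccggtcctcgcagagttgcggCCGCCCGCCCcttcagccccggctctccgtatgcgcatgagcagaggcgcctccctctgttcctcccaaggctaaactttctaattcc
LAMA3, chr18:23872770-23873019, + strand: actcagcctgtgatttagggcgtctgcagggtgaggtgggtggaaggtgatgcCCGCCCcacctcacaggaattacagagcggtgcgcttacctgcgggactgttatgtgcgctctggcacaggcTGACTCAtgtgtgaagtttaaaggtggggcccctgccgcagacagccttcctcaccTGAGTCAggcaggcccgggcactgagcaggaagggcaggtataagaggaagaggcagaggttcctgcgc

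The windows of LAMA5, LAMC1 and LAMB1 were alike in composition. They held 32, 32 and 28 CpG dinucleotides and 5, 3 and 4 GC boxes, and none of the other words. Their G + C content was 82.8%, 79.6% and 70.4%. The 1 window listed for LAMA3 differed, with 9 CpG, 1 GC box and 2 AP-1 sites at 60.4% G + C. Which transcripts of LAMA3 begin at that start was not checked, so the window may not serve all of its forms. Over all 35116 windows of this table the median was 11 CpG and 58% G + C, 42.6% held a GC box and 6.57% an AP-1 site. The window of LAMB2, which did not pass and is not printed, held 12 CpG, 1 GC box and none of the other words at 58.4% G + C. Of the words searched, the GC box was the only one in LAMA5 and LAMC1, which fell, and in LAMB1, which rose. The part of promoter sequence in the differences was not tested. The words are matches of letters and no measured sites. The table holds no window for ITGB3, ITGA7, ITGB2 or LAMA1.

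The longest annotated 3′ UTRs of the members (GENCODE release 29) were read for CAAGAT and TAAGGA, words that an earlier analysis of these same libraries had found to be frequent among lower genes. These genes' own differences led to that choice, so that their presence supports nothing. Of the 5 lower members, 3 held at least 1 of the words, against 57.4% of all 2836 lower genes with a 3′ UTR and 48.4% of all 11478 tested genes with one. The sites are shown with the word in capitals and the flanking bases in lower case.
ITGA7: ctggtgtcgcatCAAGATttggcaggatcg
ITGB5: aatgaaaagaaaCAAGATtgtttgggattg
LAMC1: aaaggttctttaCAAGATgataccttaatt
LAMC1: atgattatagaaTAAGGAatttatgtaaat
LAMA5 and ITGB2 held neither word in 3′ UTRs of 271 and 415 bases. Among the 9 higher members, 3 held them: ITGA1 (5 sites in 6759 bases), ITGA6 (3 sites in 2162 bases) and ITGB1 (1 site in 1323 bases). Of all 3903 higher genes with a 3′ UTR, 44.4% held at least 1 of the words. Among the 7 members that did not pass, only ITGAV held 1, against 46.4% of all 4739 such genes with a 3′ UTR.

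The libraries numbered 1 differed from the others in a way that ran through the members. In 20 of the 21 tested genes library 1 deviated from libraries 2 and 3 to the same side in both groups, as in 81.0% of all tested genes. ITGA1, ITGAV, ITGA2, ITGA6 and ITGB1 were higher in library 1, by 0.15 to 0.39 on the log2(FPKM + 1) scale. ITGB2, LAMB3, LAMB2, ITGB4, LAMA5, ITGA3, ITGA5, ITGB5 and ITGA7 were lower in it, by 0.09 to 0.33. This deviation moved with the base composition of the transcript. Across the 21 genes its Pearson correlation with G + C content was -0.92 in siControl and -0.92 in siPHF20L1 libraries, and across 11526 tested genes -0.69 and -0.68. The points share their libraries, and the values are given as a description. The log2 difference between the groups had a correlation of -0.48 with G + C content across the 21 members and 0.13 across all tested genes. ITGA1, ITGA2, ITGA6 and ITGB1, all higher, had 38.8% to 42.9% G + C, and LAMA5, ITGA7 and ITGB2, all lower, 59.6% to 66.4%. LAMC1, which fell, had 48.65%, and ITGA5, which rose, 58.7%. ITGB3, which rose most, had 52.3% and ITGB5, which fell, 54.25%. ITGAV, with the lowest G + C content of the 21 genes at 38.25%, did not pass, nor did ITGA3 at 60.9% and LAMB2 at 60.3%. The part of base composition in the differences was not tested.

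**Figure D3:**
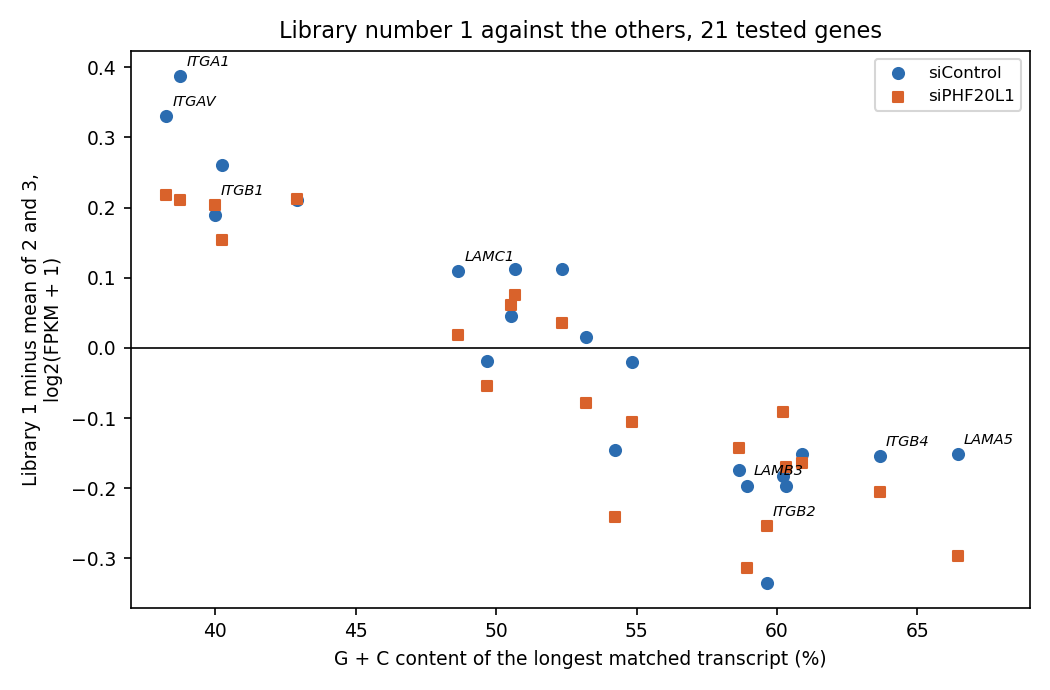
G + C content of the longest matched transcript (%) against the level in library 1 minus the mean of libraries 2 and 3 (log2(FPKM + 1)), for the 21 tested genes in siControl (blue circles) and siPHF20L1 (orange squares). Genes under 45% G + C lie above 0 and genes over 58% below 0 in both groups.

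Within the numbers the called members held their direction. With number 1 given first and numbers 2 and 3 after it, the log2 differences were -1.45 and -1.31 for LAMA5, -1.25 and -1.34 for ITGA7, -0.93 and -0.84 for ITGB5, -0.86 and -0.77 for LAMC1 and -0.49 and -0.57 for ITGB2. They were 1.19 and 1.26 for ITGB3, 0.51 and 0.69 for ITGA1, 0.34 and 0.44 for ITGA2, 0.37 and 0.37 for ITGA6, 0.38 and 0.37 for ITGB1, and 0.35 and 0.39 for LAMA3. Without the pair numbered 1, 10 members were higher and 7 lower (limma), where 71.2% of all tested genes passed. Under the replicate block the counts were again 10 and 7, where 76.1% of all tested genes passed, ITGB4 and LAMB3 being among those that passed in addition.

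Inside the cell, integrin tails are tied to actin by talin, kindlins and other linkers, and signal through focal adhesion and Src kinases. The linker list had 6 of 19 tested genes higher and 9 lower, against 34.0% and 24.7% of all tested genes, and a median log2 difference of -0.21 against 0.05. The same shares of all genes apply to the counts of each list that follows. VCL, which encodes vinculin, fell from 140.3 ± 6.22 to 98.0 ± 4.47 FPKM (limma, adjusted p = 0.000123) and the filamin partner gene FBLIM1 from 29.5 ± 0.871 to 20.7 ± 1.08 FPKM (0.000186). The tensin gene TNS2 rose from 14.5 ± 0.804 to 29.2 ± 1.31 FPKM (6.5e-06) and the zyxin relative LPP from 8.13 ± 1.6 to 16.6 ± 2.92 FPKM (0.000592). The linkers thus moved both ways around integrins that did the same. In the signalling list 10 of 20 were higher and 5 lower (median 0.14). RAPGEF1, the exchange factor for Rap1, rose from 11.9 ± 0.682 to 40.7 ± 1.38 FPKM (limma, adjusted p = 5.31e-07) and the Rac activator gene DOCK1 from 8.37 ± 0.020 to 20.6 ± 1.08 FPKM (1.94e-06). ASAP1 fell from 45.3 ± 4.78 to 27.7 ± 3.72 FPKM (0.000571) and the adaptor gene CRKL from 33.8 ± 2.16 to 25.1 ± 1.22 FPKM (0.000835).

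Of 17 tested genes of integrin inhibition and traffic, 4 were higher and 2 lower (median 0.008), against 34.0% and 24.7% of all tested genes. Under the replicate block 14 of the 17 passed, against 76.1% of all tested genes. CCM2 rose from 14.4 ± 1.27 to 27.4 ± 3.32 FPKM (limma, adjusted p = 0.000106) and TBC1D2 from 40.9 ± 3.29 to 53.0 ± 4.96 FPKM (0.00591). DAB2, an adaptor for integrin endocytosis, fell from 21.8 ± 0.366 to 11.8 ± 0.584 FPKM (9.75e-06) and RASA1 from 20.7 ± 2.20 to 15.2 ± 1.28 FPKM (0.00368). Among hemidesmosome genes and other laminin receptors, 7 of 16 were higher and 2 lower (median 0.08). One of the 7, the hemidesmosome collagen gene COL17A1 (0.68 to 0.87 FPKM in siControl and 1.59 to 1.89 FPKM in siPHF20L1 libraries), was tested only because its siPHF20L1 libraries passed 1 FPKM. POMGNT1, an enzyme that builds the laminin-binding glycan of dystroglycan, rose from 13.6 ± 0.926 to 29.6 ± 1.87 FPKM (limma, adjusted p = 6.74e-06). DST, a hemidesmosome linker, fell from 70.4 ± 9.80 to 53.3 ± 6.36 FPKM (limma, adjusted p = 0.0148, and 0.0515 and 0.054 without siPHF20L1 replicate 2 or 3).

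Among the basement membrane partners of laminin, 4 of 9 tested genes were higher and 1 lower (median -0.12), and 8 of the 9 passed under the block, against 76.1% of all tested genes. COL4A1, a chain of the collagen network of the basement membrane, rose from 6.66 ± 0.309 to 29.8 ± 0.410 FPKM (limma, adjusted p = 2.1e-07). NTN4, a netrin that binds laminin γ chains, rose from 7.07 ± 0.416 to 17.2 ± 0.463 FPKM (2.73e-06), and PXDN, which crosslinks collagen IV, fell from 104.4 ± 3.37 to 87.8 ± 3.85 FPKM (0.00505). Of the other integrin ligands, 11 of 22 were higher and 5 lower (median 0.29). FBN1, which encodes fibrillin, rose from 4.94 ± 0.301 to 12.8 ± 0.547 FPKM (limma, adjusted p = 3.13e-06) and the tenascin gene TNC from 1.33 ± 0.147 to 4.25 ± 0.093 FPKM (5.77e-06). L1CAM fell from 1.86 ± 0.320 to 1.02 ± 0.104 FPKM (0.00246) and THBS2, a thrombospondin, from 7.78 ± 0.352 to 5.53 ± 0.483 FPKM (0.00157). With a siPHF20L1 library at 0.9 FPKM, L1CAM met the filter on low values only with its siControl libraries counted. Over the 6 lists together, 42 of 103 tested genes were higher and 24 lower, 64.1% of them, a share near the 58.6% of all genes.

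**Figure D4:**
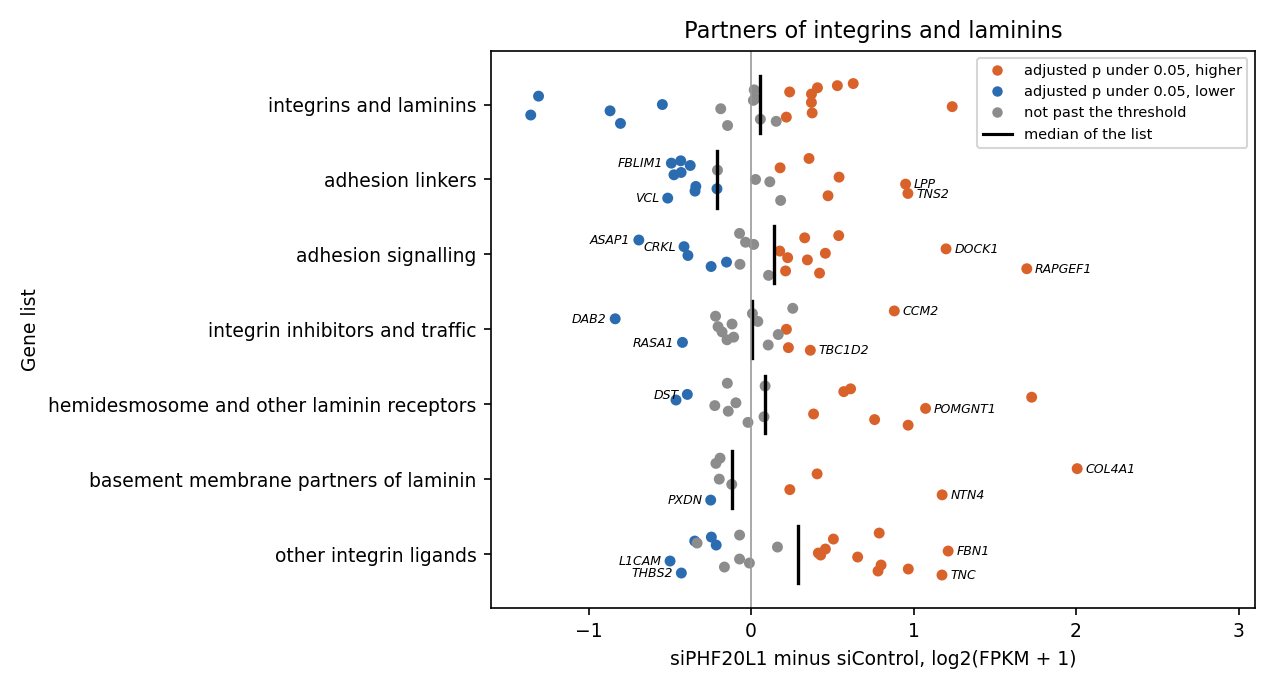
Log2 difference (siPHF20L1 minus siControl, log2(FPKM + 1)) of each tested gene of the integrin and laminin genes and of 6 lists of their partners; colour gives the call of limma and the black bar the list's median. Each list holds genes on both sides of 0, and COL4A1 and RAPGEF1 lie among the points farthest to the right.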

How the data were processed

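RNA sequencing values of 3 siControl and 3 siPHF20L1 libraries were taken as deposited by the authors, in FPKM, 1 file per library with 17452 genes, per the file headers. Build GRCh37 and the tools Bowtie 0.12.2, TopHat2 2.1.1 and HTSeq 0.6.0 are listed, without roles, in the submitters' processing notes. How FPKM were computed, and whether strand was used, is not given in the sources used here. FPKM sums ranged from 395250.9 to 416138.4. Depth (17000000 to 17500000 fragments) was read from the step of FPKM times length in short genes of 1 transcript, and is approximate.

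Genes with FPKM of at least 1 in at least 3 libraries were tested with limma 3.58.1 (R 4.3.3) on log2(FPKM + 1), with an intensity trend, group as the only term, two-sided, and Benjamini-Hochberg adjustment over all 11560 genes. Fold changes on this scale understate low genes, so ratios of mean FPKM are given too. Alternatives changed the filter, pseudocount, scaling, trend, block and libraries. Deviations from the group's mean correlated across genes between same-numbered libraries (0.73, 0.44 and 0.42), while the labels state no pairing. siControl 3 with siPHF20L1 2 gave 0.49 and siControl 2 with siPHF20L1 3 gave 0.31, so that only number 1 is set apart. Where number 1 stands apart, deviations from the mean make numbers 2 and 3 correlate, so these values show no pairing of 2 and 3.

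Members, lists and tests were chosen with earlier results of these data known. Tested members are named, and a few genes that count in the totals are not reported here. From each list of partners, up to 2 genes with the largest called rises and 2 with the largest called falls are named. Transcript length and G + C content came from GENCODE release 29, matched by RefSeq accession (all 21 tested members). The 3′ UTR was the longest among that release's transcripts with the gene's symbol, whether or not matched by accession. Promoters came from RefSeq.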

Additional observations from a re-analysis of the deposited data

How the results depend on the processing

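Over 16 alternatives, 13 of the 14 called members kept their direction and call wherever they were tested, ITGA5 being the exception. The count of called members ran from 12 (FPKM of at least 5, where fewer genes were tested) to 17, and from 13 to 15 when 1 library was left out. The replicate block gave 17 called members, where 76.1% of all tested genes passed. No count over the members or over all genes moved by more than 1.5 times. In the integrin inhibition and traffic list the count went from 6 to 14 with the replicate block and to 11 in the libraries numbered 2 and 3 alone, and lay between 4 and 9 when 1 library was left out. In the basement membrane list it went from 5 to 8 with the block and to 8 without the filter, where more genes were tested. The cause of the other changes was not tested.

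Members near 0 changed sign without passing. Median-ratio size factors gave -0.046 for ITGA3, -0.019 for ITGAE, -0.047 for ITGAV and -0.0069 for LAMB2, and quantile normalization -0.081 for ITGAE and -0.046 for ITGAV. When 1 library was left out, the log2 difference ranged from -0.031 to 0.074 for ITGA3, from -0.029 to 0.065 for ITGAE, from -0.059 to 0.12 for ITGAV and from -0.0083 to 0.11 for LAMB2. ITGA3 passed with quantile normalization alone (0.15, limma, adjusted p = 0.0326). The 17 members below the filter rest on few fragments, LAMA1 apart, and differences among them were mostly not detectable at this depth.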
